A study of Arabidopsis thaliana with 4 samples.

Results

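The U2 snRNP is the splicing particle that pairs with the branch site of an intron. The 10 genes described here encode proteins of this particle and of U2AF, the factor that brings it to the intron. They were taken as the rows with these AGI locus identifiers, in a rule that names no threshold on their values: *SF3B1*, *U2A'*, *U2B''*, *SF3A1*, *SF3A2* and *SF3A3* for the particle, and *U2AF65a*, *U2AF65b*, *U2AF35a* and *U2AF35b* for U2AF. All 10 were among the 32833 genes listed in the count data, and all 10 passed the filter on low counts, as did 21673 genes in all. RNA was sequenced from Arabidopsis seedlings at 14 days, either wild-type (Col-0) or *mettl4-1*, a T-DNA line with an insertion in the first exon of *METTL4*, with 2 libraries per genotype. The labels give no further allele or treatment. Seedlings grew on MS medium under long days with 16 h of light, at 22 °C by the labels. The study's methods give 22 °C for the plants scored for flowering and a lower temperature for those used for RNA. The dark period reads 8 and 9 h for Col-0 and 10 and 11 h for *mettl4-1* in the labels' description of the source, while their growth protocol gives 8 h for all. If the first were right, dark period and genotype could not be told apart. The deposited data of *mettl4-1* replicate 2 are named after another allele, and the labels were followed. By the labels both mutant libraries carry the same insertion allele. If the name of the data were right, replicate 2 would carry another allele, with 1 library for each allele. Whether the 2 libraries of a genotype came from separate plants is not given in the sources used here, so that the p-values measure the spread between these libraries, which may be technical. The comparison asks whether loss of METTL4, which methylates U2 snRNA, came with changed transcript levels of the proteins that work with that RNA.

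In splicing, U2AF binds the end of the intron first. Its large subunit U2AF65 holds the polypyrimidine tract and its small subunit U2AF35 reads the AG at the 3′ splice site. The U2 snRNP then joins: U2 snRNA pairs with the branch site, the SF3a and SF3b complexes clamp that duplex onto the pre-mRNA, and U2A' and U2B'' bind a stem-loop near the 3′ end of U2 snRNA. Arabidopsis has a pair of genes for each U2AF subunit.

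The 5′ end of U2 snRNA is shown because it holds both the adenosine that METTL4 is thought to methylate and the stretch that pairs with the branch site. It was read from the U2.10 gene (AT2G04375, TAIR10.1 chr2:849778-849837, plus strand), as RefSeq annotates it. This locus had 0 counts in all 4 libraries. Only the first 45 of the bases shown were searched for copies elsewhere. The capital marks the adenosine at position 31, counted from the 5′ end. This is the likely METTL4 site, as inferred in the study from assays of synthetic RNA and of plant U2 snRNA. The branch-site pairing stretch (GTAGTA in DNA letters) runs from position 34 to 39.
U2.10 snRNA, first 60 bases as DNA: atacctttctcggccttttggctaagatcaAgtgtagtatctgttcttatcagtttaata

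The nuclear genome held 16 exact copies of the first 45 of these bases, so that reads from U2 snRNA cannot be assigned to one gene. Of the 23 U2 loci that RefSeq annotates, 13 held this 5′ sequence at their annotated place. Over these 13 loci the counts summed to 149 and 201 for Col-0 and to 194 and 210 for *mettl4-1*, or 2.71 and 3.02 against 3.84 and 4.08 CPM (counts scaled to a library of 1e6 counts). In CPM both *mettl4-1* libraries lay above both Col-0 libraries, as for 22.8% of all tested genes, while in counts they overlapped. Of the 7 loci with enough counts to test, 0 reached an adjusted or an unadjusted p under 0.05 when tested with edgeR's quasi-likelihood method. Over all tested genes 0.960% were higher and 1.87% lower at the adjusted threshold, and 6.83% and 8.40% at the unadjusted one. The libraries were made from poly(A) RNA, and U2 snRNA lacks a poly(A) tail. The 13 annotated loci span 97 to 883 bp, and the longer ones extend into flanking sequence. These few counts therefore do not measure the U2 snRNA level.

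*METTL4* (AT1G19340) was examined first as a check of the labels. Its counts were 355 and 413 for Col-0 but only 35 and 46 for *mettl4-1*, so that the genotypes were far apart. Its level in *mettl4-1* was 12.5% of that in Col-0, a log2 fold change of -2.99 (SE 0.14) with an adjusted p of 8.6e-07 in edgeR's quasi-likelihood test. These counts cannot tell which allele *mettl4-1* replicate 2 carries. Total counts per library lay between 50862075 and 66003824. The libraries differed in other respects: organelle genes took 0.693% and 0.713% of counts in Col-0 against 2.68% and 1.03% in *mettl4-1*, and 18S ribosomal RNA took 0.495% and 0.369% against 3.65% and 1.25%, with *mettl4-1* replicate 1 highest in both. Of the marker lists, all 7 seed storage and oil body genes were lower in *mettl4-1* (summed level 75.1 to 76.0 CPM in Col-0 and 2.91 to 3.11 CPM in *mettl4-1*, with *CRU2*, *SESA1* and *SESA3* at 0 counts in both *mettl4-1* libraries). All 5 leaf genes were lower too (23638 to 23731 against 20787 to 21868 CPM), while 0 of 4 root genes, 0 of 5 flower genes and 0 of 4 dividing-cell genes passed at an adjusted p of 0.05 by edgeR. The leaf genes were abundant in all 4 libraries. The part of these differences in the results below was not tested, and in whole seedlings fewer cells of a type and less RNA per cell cannot be told apart.

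The transcript levels of the U2 snRNP and U2AF genes were nearly the same in both genotypes, with *SF3A3* as the exception. At the thresholds of the study, a change of at least 1.5-fold and an unadjusted p under 0.05, 0 of the 10 genes were called, against 1.62% of all tested genes. With the adjusted p of edgeR's quasi-likelihood test held under 0.05, 1 gene, *SF3A3*, was higher in *mettl4-1* (0.960% of all tested genes) and 0 were lower (1.87% of all tested genes). DESeq2's Wald test called 0 of the 10 higher at an adjusted p under 0.05. Over all genes it called 101 higher, against 208 in edgeR's test, and gave 16317 of 26301 genes no adjusted p. Its 0 of 10 is therefore not read as a result about these genes. At an unadjusted p under 0.05 edgeR's test also found *SF3A3* alone, 1 higher and 0 lower of 10. Over all tested genes 6.83% were higher and 8.40% lower at that threshold. The median log2 fold change of the 10 genes was 0.0084, beside 0.0015 over all tested genes, with 6 values above 0 and 4 below.

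The other 9 genes differed by little between genotypes. Their fold changes ran from 0.965 to 1.03, and their smallest adjusted p was 0.476 in edgeR's test. The 95% intervals of these 9 changes lay between 0.894-fold and 1.08-fold, far inside the 1.5-fold threshold. The median size of the log2 fold change over the 10 genes was 0.025, against 0.042 over the 7578 tested genes with a mean level in the same range (21.9 to 163 CPM).

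**Figure D1:**
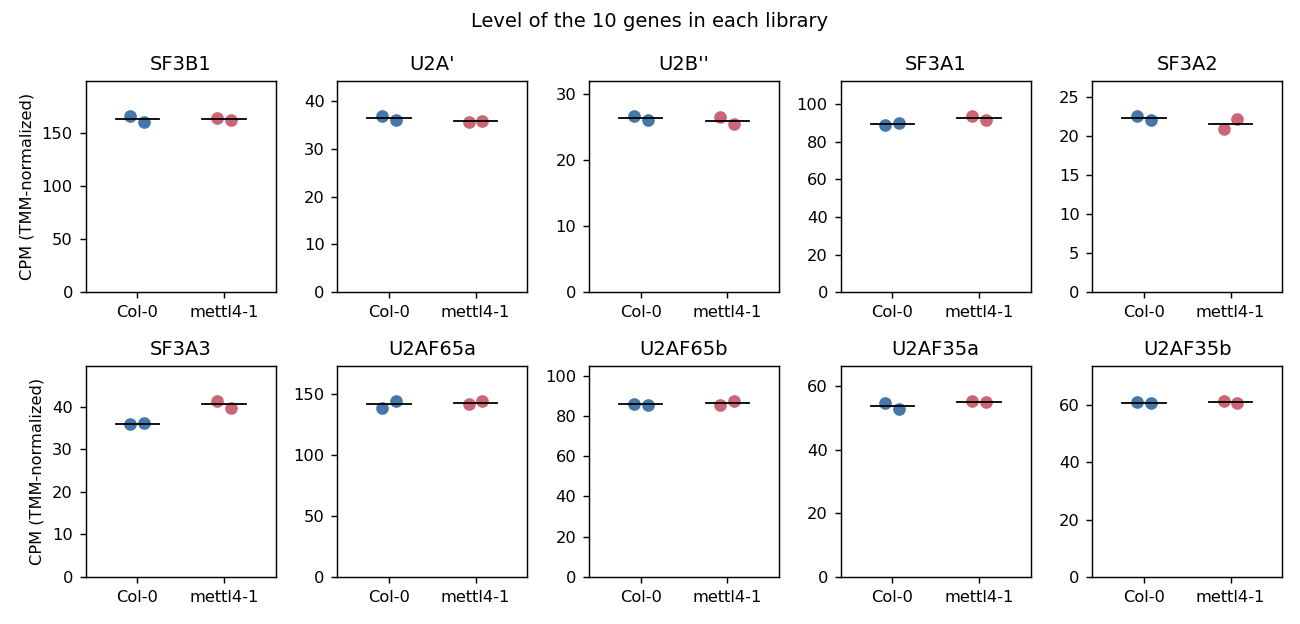
Level of each of the 10 genes in CPM (vertical axes, from 0, scaled per gene) in the 2 Col-0 and the 2 mettl4-1 libraries. Points are libraries and lines are genotype means; only SF3A3 shows a step, from 36.0 and 36.2 CPM in Col-0 to 41.4 and 39.9 CPM in mettl4-1.

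SF3a is the heterotrimer that ties the SF3b complex to the body of the U2 snRNP. *SF3A3* (AT5G06160, chr5:1862325-1866433, minus strand), known in Arabidopsis as ATROPOS, encodes its SF3a60-type subunit. It stood at 36.0 and 36.2 CPM in Col-0 and at 41.4 and 39.9 CPM in *mettl4-1*, from 1978, 2413, 2094 and 2052 counts. The lower *mettl4-1* library was above the higher Col-0 library, and the replicates of a genotype were closer to each other than to the other genotype. *SF3A3* was higher in *mettl4-1* by 12.6%, from 36.1 ± 0.185 to 40.6 ± 1.10 CPM (SD, n = 2), with a log2 fold change of 0.17 (SE 0.037, 95% interval 0.089 to 0.25) and an adjusted p of 0.035 in edgeR's quasi-likelihood test. The call was lost in some alternatives: the adjusted p was 0.133 in DESeq2's Wald test, and in edgeR's test 0.248 without Col-0 replicate 1, 0.188 without Col-0 replicate 2 and 0.0531 without *mettl4-1* replicate 1. Each fit without a library leaves 1 library in a genotype, which is assumed to vary like those of the other genotype, so that a lost call can follow from the smaller design. The log2 fold change itself stayed between 0.14 and 0.20 over all alternatives, and it was 0.14 without *mettl4-1* replicate 1, the library with the highest 18S and organelle shares. No annotated gene overlaps *SF3A3*, and 2.93% of its exon sequence has a match of at least 95% identity in another gene.

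The partners of *SF3A3* in the complex moved less. *SF3A1* (AT1G14650, chr1:5027316-5031883, plus strand) encodes the subunit with SURP domains that bind the other components. It had 89.1 and 89.8 CPM in Col-0 and 93.5 and 91.3 CPM in *mettl4-1*, with no overlap, a log2 fold change of 0.047 (95% interval -0.015 to 0.11) and an adjusted p of 0.476 in edgeR's test. *SF3A2* (AT2G32600, chr2:13833545-13835758, minus strand), which encodes a zinc finger subunit, had 22.5 and 22.1 CPM in Col-0 and 20.8 and 22.1 CPM in *mettl4-1*. The genotypes overlapped for *SF3A2*, whose log2 fold change was -0.052 (95% interval -0.16 to 0.058).

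The ratio of *SF3A3* to its partners within a library does not depend on how libraries are scaled to each other. This ratio was chosen after the levels had been seen. In levels per exon length, *SF3A3* stood to *SF3A1* as 0.774 and 0.774 in Col-0 and as 0.850 and 0.837 in *mettl4-1*. It stood to *SF3A2* as 1.07 and 1.10 in Col-0 and as 1.33 and 1.2 in *mettl4-1*. Both ratios were higher in both *mettl4-1* libraries, with differences of 0.12 and 0.22 on the log2 scale. With 2 libraries per genotype the exact two-sided permutation test gave p = 0.33 for each, the smallest it can give.

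**Figure D2:**
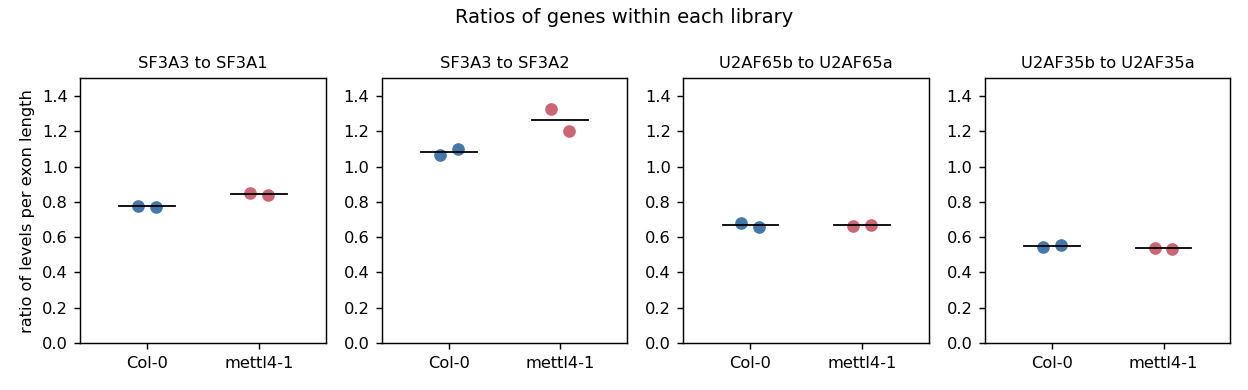
Ratios of levels per exon length (vertical axis, from 0) between gene pairs within each of the 4 libraries; points are libraries and lines are genotype means. The SF3A3 ratios are higher in both mettl4-1 libraries (0.837 and 0.850 to SF3A1 against 0.774 in Col-0), while the U2AF pair ratios differ between genotypes by less than between the Col-0 replicates.

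*SF3B1* (AT5G64270, chr5:25706608-25711355, plus strand) encodes the largest SF3b protein, whose repeats close around the branch-site adenosine. It had the most counts of the 10 genes, 165.5 and 160.4 CPM in Col-0 and 163.9 and 161.6 CPM in *mettl4-1*. The genotypes overlapped and the means were 163 and 163 CPM. Its log2 fold change was -0.0017 (95% interval -0.071 to 0.068). The convergent gene *DiT2.2* on the other strand shares 357 bp (7.72%) of the exons of *SF3B1*.

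*U2A'* (AT1G09760, chr1:3159125-3161692, minus strand) and *U2B''* (AT2G30260, chr2:12905345-12907665, minus strand) encode the pair of proteins that are specific to the U2 particle and bind its RNA together. *U2A'* had 36.9 and 36.1 CPM in Col-0 and 35.7 and 35.9 CPM in *mettl4-1*. Both *mettl4-1* values were below both Col-0 values, but the nearest libraries of the genotypes were closer than the Col-0 replicates were to each other. Its log2 fold change was -0.026 (95% interval -0.11 to 0.056), with an adjusted p of 0.805 in edgeR's test. AT1G09750 on the other strand shares 24 bp (2.02%) of the exons of *U2A'*. AT1G09750 had 7914 and 9375 counts for Col-0 and 5838 and 6277 for *mettl4-1*. Its log2 fold change was -0.26, with an adjusted p of 0.0027 in edgeR's test. Whether its reads entered the counts of *U2A'* was not tested. *U2B''* had 26.6 and 26.1 CPM in Col-0 and 26.5 and 25.4 CPM in *mettl4-1*, so that the genotypes overlapped. Its log2 fold change was -0.023 (95% interval -0.12 to 0.077). Within a library, *U2B''* stood to *U2A'* per exon length as 0.677 and 0.678 in Col-0 and as 0.695 and 0.662 in *mettl4-1*, with the *mettl4-1* libraries on either side of Col-0.

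The U2AF65 genes encode the subunit that binds the polypyrimidine tract. *U2AF65a* (AT4G36690, chr4:17293938-17297761, minus strand) had 138.5 and 144.0 CPM in Col-0 and 141.4 and 144.1 CPM in *mettl4-1*, with overlapping genotypes and a log2 fold change of 0.015 (95% interval -0.057 to 0.087). *U2AF65b* (AT1G60900, chr1:22423894-22428053, plus strand) had 85.8 and 85.7 CPM in Col-0 and 85.4 and 87.5 CPM in *mettl4-1*, again overlapping, with a log2 fold change of 0.012 (95% interval -0.050 to 0.073). A further locus, AT1G60830, matches 395 bp of *U2AF65b* at 96.2% identity. Its counts were 6 and 4 for Col-0 and 0 and 0 for *mettl4-1*, beside 4317 to 5704 counts of *U2AF65b* per library.

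The U2AF35 genes encode the reader of the 3′ splice site. *U2AF35a* (AT1G27650, chr1:9614551-9616574, plus strand) had 54.7 and 52.8 CPM in Col-0 and 55.4 and 55.0 CPM in *mettl4-1*. Both *mettl4-1* values were above both Col-0 values, by less than the distance between the Col-0 replicates, and the log2 fold change was 0.039 (95% interval -0.030 to 0.11). *U2AF35b* (AT5G42820, chr5:17169283-17172787, minus strand) had 61.1 and 60.6 CPM in Col-0 and 61.5 and 60.7 CPM in *mettl4-1*, with overlapping genotypes and a log2 fold change of 0.0052 (95% interval -0.057 to 0.068). Annotated genes on the other strand cover much of its exons, among them AT5G42825 over 33.9% and the long non-coding AT5G06395 over 30.5%. The libraries came from a stranded kit, but the strand setting of the counting is not given in the sources used here, so that reads of *U2AF35b* and of these genes may not be fully told apart.

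**Figure D3:**
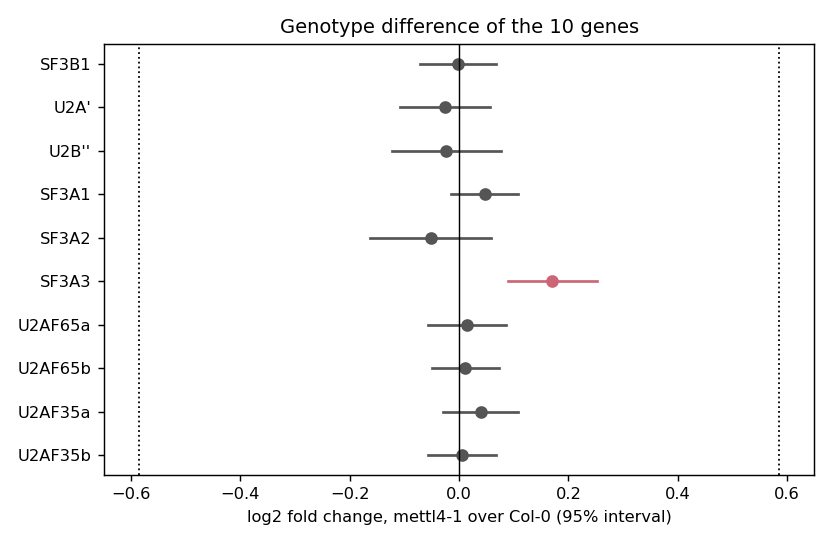
Log2 fold change of each gene, mettl4-1 over Col-0 (horizontal axis), with its 95% interval from edgeR; dotted lines mark a change of 1.5-fold and the red point has an adjusted p under 0.05. The interval of SF3A3 runs from 0.089 to 0.25, and the other 9 intervals cross 0.

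For 4 of the 10 genes the genotypes did not overlap. Both *mettl4-1* libraries were above both Col-0 libraries for *SF3A3*, *SF3A1* and *U2AF35a*, as for 22.8% of all tested genes, and below for *U2A'*, as for 23.0% of all tested genes. The largest log2 difference between replicates was 0.057 in Col-0, for *U2AF65a*, and 0.090 in *mettl4-1*, for *SF3A2*. The difference between genotypes exceeded both of these only for *SF3A3*.

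Each U2AF subunit is encoded by a pair of genes, and the share of each gene in its pair was compared. The coding sequences of *U2AF65a* and *U2AF65b* are identical at 74.8% of aligned bases and those of *U2AF35a* and *U2AF35b* at 80.3%, and neither pair shares exon sequence of at least 95% identity. Per exon length, *U2AF65b* stood to *U2AF65a* as 0.683 and 0.655 in Col-0 and as 0.665 and 0.669 in *mettl4-1* (log2 difference -0.0039, exact two-sided permutation p = 1). *U2AF35b* stood to *U2AF35a* as 0.541 and 0.557 in Col-0 and as 0.538 and 0.535 in *mettl4-1* (log2 difference -0.034, exact two-sided permutation p = 0.33, the smallest possible). The difference for the U2AF35 pair was smaller than that between the Col-0 replicates, 0.041. Which U2AF35 gene is the higher depends on the length used: the annotated exons of *U2AF35b* span 2897 bp for a coding sequence of 852 bp, and per coding length the ratio was 1.17 and 1.2 in Col-0 and 1.16 and 1.15 in *mettl4-1*. For the U2AF65 pair the ratio per coding length, 0.578 to 0.603 over the 4 libraries, kept *U2AF65a* the higher.

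Per exon length the order of the 10 genes in Col-0 ran from *U2AF65a* at 60.2 ± 1.68 CPM per kb (SD, n = 2), through *U2AF65b* (40.2 ± 0.056), *U2AF35a* (38.3 ± 0.978), *SF3B1* (35.2 ± 0.786), *U2A'* (30.7 ± 0.483), *SF3A1* (23.9 ± 0.139), *U2AF35b* (21.0 ± 0.114), *U2B''* (20.8 ± 0.310) and *SF3A3* (18.5 ± 0.0949), to *SF3A2* at 17.1 ± 0.238 CPM per kb. Of neighbours in this order, *U2AF35b* and *U2B''* overlapped between Col-0 libraries. The first 6 genes and the last, *SF3A2*, held the same places in all 4 libraries. In *mettl4-1* the level of *SF3A3*, 21.3 and 20.5 CPM per kb, overlapped those of *U2AF35b* (21.2 and 20.9) and *U2B''* (at most 20.9), which it did not in Col-0. The place of *U2AF35b* depends on its annotated exon length as above.

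Other spliceosome genes were examined as 7 further lists with 68 tested genes in all: other SF3b subunits, factors that act at the branch site or join with U2, Sm core proteins, U1 proteins, U5 and U4/U6 proteins, the PRP19 complex with the step helicases, and close relatives of the 10 genes. At the study's thresholds 0 of the 68 were called, against 1.62% of all tested genes. With the adjusted p of edgeR's quasi-likelihood test held under 0.05, 1 was higher (0.960% of all tested genes) and 1 lower (1.87%). The median log2 fold change of the 68 genes was 0.022. The SF3b list (9 genes), the branch-site list (8), the U5 and U4/U6 list (12), the PRP19 complex list (12) and the close relatives (3) held 0 calls in either direction, with medians of 0.018, 0.0082, 0.036, 0.016 and 0.076. At an unadjusted p under 0.05, 6 of the 68 were higher and 4 lower, near the shares of all tested genes given above (6.83% and 8.40%). DESeq2's Wald test called 0 higher and 1 lower at an adjusted p under 0.05 and gave 12 of the 68 no adjusted p. Over all genes it called 101 higher and gave 16317 of 26301 no adjusted p. *SF3B3a* and *SF3B3b* are 99.8% identical over 4110 bp, so that the division of reads between them is uncertain.

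In the Sm list 1 of 13 genes was lower at an adjusted p under 0.05 in edgeR's test (1.87% of all tested genes). At that threshold 0 were higher (0.960% of all tested genes), and the median log2 fold change was 0.0074. Sm proteins form the ring on which U1, U2, U4 and U5 snRNAs are built. *SMB* (AT4G20440), one of the genes for SmB, stood at 45.3 and 45.5 CPM in Col-0 and at 39.3 and 39.4 CPM in *mettl4-1*, with a log2 fold change of -0.21 (SE 0.033) and an adjusted p of 0.0077 in edgeR's test. The genotypes were well apart, and the log2 fold change was -0.21 without Col-0 replicate 1 and -0.20 without Col-0 replicate 2. The adjusted p in these edgeR fits, with a lone Col-0 library, was 0.0553 and 0.0686. Its paralog *SMB-b* (AT5G44500) had 7.02 and 7.07 CPM in Col-0 and 7.14 and 7.33 CPM in *mettl4-1*.

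In the U1 list 1 of 11 genes was higher at an adjusted p under 0.05 in edgeR's test (0.960% of all tested genes). At that threshold 0 were lower (1.87% of all tested genes), and the median log2 fold change was 0.041. *LUC7B* (AT5G17440) encodes a LUC7 protein of the U1 snRNP, which recognizes the 5′ splice site. It stood at 26.9 and 26.4 CPM in Col-0 and at 30.0 and 30.4 CPM in *mettl4-1*, with a log2 fold change of 0.18 (SE 0.042) and an adjusted p of 0.048 in edgeR's test. The adjusted p was 0.188 in DESeq2's Wald test, and in edgeR's test 0.186 without Col-0 replicate 1, 0.276 without Col-0 replicate 2, 0.0532 with a replicate block and 0.0554 when 10 counts were required in every library. The log2 fold change of *LUC7B* was 0.19 without Col-0 replicate 1 and 0.17 without Col-0 replicate 2. It was 0.19 without *mettl4-1* replicate 1 and 0.17 without *mettl4-1* replicate 2. Each of these fits leaves 1 library in a genotype. In the other alternatives the log2 fold change of *LUC7B* was 0.18.

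The closest relatives of the 10 genes did not pass the test. *SF3A1-like* (AT1G14640), whose coding sequence is 87.5% identical to that of *SF3A1*, was at 6.15 and 5.81 CPM in Col-0 and at 7.73 and 6.22 CPM in *mettl4-1*, with an adjusted p of 0.358 in edgeR's test. *U2B''-LIKE* (AT1G06960), 84.4% identical to *U2B''*, was at 15.3 and 14.5 CPM in Col-0 and at 15.3 and 15.5 CPM in *mettl4-1*. *URP* (AT1G10320), a U2AF35-related gene, was at 21.9 and 23.0 CPM in Col-0 and at 24.2 and 23.1 CPM in *mettl4-1*. All 3 log2 fold changes were above 0, from 0.046 to 0.22.

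**Figure D4:**
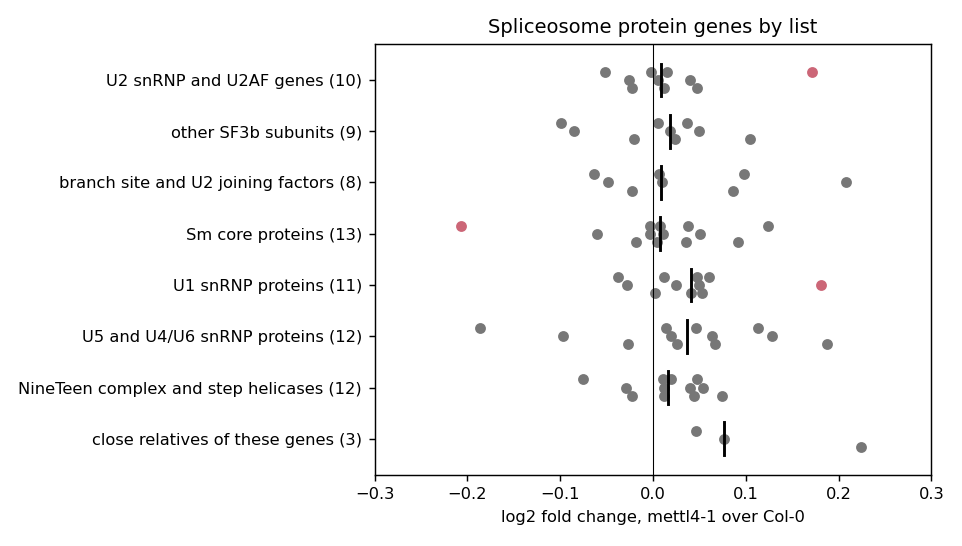
Log2 fold change, mettl4-1 over Col-0 (horizontal axis), of the 10 U2 snRNP and U2AF genes and of the genes in 7 further spliceosome lists, with the number of genes in parentheses. Points are genes, red where the adjusted p is under 0.05 (SF3A3, SMB and LUC7B), and vertical bars are list medians, which lie between 0.0074 and 0.076.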

How the data were processed

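Libraries were made from poly(A) RNA with a stranded kit. The authors trimmed reads with cutadapt 3.5, mapped them to TAIR10 with HISAT2 2.2.1, filtered with SAMtools 1.13 and counted with featureCounts 2.0.1, per the submitters' processing notes. They deposited raw counts, 1 whole number per gene and library. The annotation used and how strand, multi-mapped reads and overlapping genes were handled are not given in the sources used here. They could change the counts of overlapping and duplicated genes. Genotypes came from the sample labels. For *mettl4-1* replicate 2 the deposited data are named after another allele and reuse the column title of replicate 1, and the labels were followed. The labels' description of the source gives dark periods of 8, 9, 10 and 11 h for the 4 libraries, and the growth protocol gives 8 h for each.

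The main test was that of edgeR 4.0.16 under R 4.3.3 (TMM scaling, filterByExpr with a minimum of 10 counts, quasi-likelihood test with genotype as the only term). Adjustment of p-values was by Benjamini-Hochberg over the 21673 genes tested. Standard errors were derived from the F statistics. CPM are TMM-normalized. A count of 3 equals 0.0450 to 0.0593 CPM, which covers counting error only. Exon lengths, positions and sequences came from RefSeq for TAIR10.1, whose nuclear chromosomes correspond to TAIR10; the deposited data hold no coordinates. The steps were tested on simulated data.

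The genes and lists were chosen with earlier results of these data known. All 10 genes and *METTL4* were named whatever their values, and in each further list up to 5 genes with the smallest p among those with an adjusted p under 0.05. The close relatives, *SMB-b* and *SF3B3a* with *SF3B3b* fall outside this rule and were named after their values were seen. Alternatives were DESeq2 size factors, no filter on low counts, 10 counts in every library, DESeq2 1.42.0, limma-voom (limma 3.58.1), a replicate block, removal of organelle genes, a 1.2-fold threshold, raw-count ratios, and leaving out single libraries. Removal of the organelle and 18S genes together was added after seeing the data. Splicing was not analysed, because counts per gene do not hold splice junctions.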

Additional observations from a re-analysis of the deposited data

How the results depend on the processing

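With 2 libraries per genotype, calls near the threshold differed between tools and were lost in some fits without a library, which leave 1 library in a genotype and take its spread from the other. The number of the 10 genes with an adjusted p under 0.05 and a higher level in *mettl4-1*, 1 in edgeR's test, was 0 in DESeq2's Wald test and 0 to 1 when single libraries were left out. The number lower was 0 throughout, and 0 were called at the study's thresholds. At 1.2-fold 0 were called too, which says little beside 757 of 21673 tested genes. The median log2 fold change of the 10 genes stayed between 0.0047 and 0.013. The number of genes whose genotypes did not overlap was 4, and 6 to 8 when single libraries were left out, which makes separation easier by construction. The share of all tested genes that separated in such fits was not determined, so that no conclusion is drawn. Over the further lists, 1 gene was higher at an adjusted p under 0.05 in edgeR's test. This was 0 with 10 counts in every library and in DESeq2's Wald test. It was 2 with no filter, with organelle genes removed and with organelle and 18S genes removed. The number higher also moved when single libraries were left out, most without *mettl4-1* replicate 2. The calls over all genes, given below, moved in such fits too, and whether the lists moved more was not tested. Each such fit leaves 1 library in a genotype, so that no conclusion is drawn from these counts. The number lower, 1, was 0 to 1 when single libraries were left out, 0 without either Col-0 library. The log2 fold change of *METTL4* stayed between -3.19 and -2.82, past the threshold in all alternatives but DESeq2's Wald test, which gave it no adjusted p (log2 fold change -3.00, unadjusted p 4.7e-36). The log2 difference of the U2AF35 ratio stayed between -0.055 and -0.013 and that of the U2AF65 ratio between -0.034 and 0.026.

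Changes of sign concerned only values near 0. *SF3B1* became 7.1e-05 with organelle and 18S genes removed and ran from -0.025 to 0.021 when single libraries were left out, *U2B''* from -0.053 to 0.0075, *U2AF35b* from -0.0033 to 0.015, *U2AF65a* from -0.013 to 0.044 and *U2AF65b* from -0.0057 to 0.029. Over all genes the study's thresholds called 351 in edgeR and 223 in DESeq2, 193 of them shared. Adjusted calls over all genes were 208 higher and 406 lower, against 338 higher with no filter, 101 higher in DESeq2 (which gave 16317 of 26301 genes no adjusted p) and 619 lower with organelle and 18S genes removed, and they ran from 145 to 721 higher and from 197 to 1085 lower when single libraries were left out. The median of all genes stayed between -1.7e-05 and 0.0023 on the log2 scale in the alternatives with all 4 libraries. It stayed between -0.00018 and 0.0022 when single libraries were left out.

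The replicate numbers are shared by the genotypes, but the deviations of equally numbered libraries did not go together (correlation across 19272 genes 0.0063, which are not independent replicates). With a replicate block the log2 fold change of *SF3A3* was 0.17 with an adjusted p of 0.031 in edgeR's test, the median of the 10 genes was 0.0083, and 258 genes were higher and 426 lower.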

Other observations

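*RCF1* (AT1G20920), a DEAD-box helicase related to yeast Prp5, which acts when U2 joins the branch site, was singled out after its values were seen. It stood at 95.9 and 95.6 CPM in Col-0 and at 118 and 103 CPM in *mettl4-1*, with a log2 fold change of 0.21 (SE 0.052) and an adjusted p of 0.066 in edgeR's quasi-likelihood test. Its value moved with single *mettl4-1* libraries: the log2 fold change was 0.10 without *mettl4-1* replicate 1 and 0.31 without *mettl4-1* replicate 2. The adjusted p of *RCF1* in edgeR's test was 0.019 with a replicate block, 0.0097 with organelle genes removed and 0.0062 with no filter on low counts, and it was 0.369 in DESeq2's Wald test. An annotated gene on the other strand, AT1G20923, overlaps *RCF1*.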
